A study of Capra hircus with 7 samples.

Results

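Genes of iron storage, uptake, export and sensing, 10 in all, were followed by name through 7 RNA-seq libraries of goat mammary gland cells: FTH1, FTL, NCOA4, TFRC, STEAP3, SLC11A2, SLC40A1, HMOX1, IREB2 and ACO1. Of these 10, 9 were matched by goat gene identifier and symbol among the 17374 genes of the table, and SLC11A2 was not analysed here. The cells came from the Lanshan dairy goat and were kept in 3D culture after virus had been used to alter cirRNA28250, a circular RNA. The groups were c3NC (2 libraries), cKDmix (2 libraries, the knockdown), c5NC (1 library) and cRNA28250 (2 libraries, the overexpression). The design text places 3NC with the knockdown and 5NC with the overexpression, so c3NC and c5NC served as their controls, and all groups share the 3D culture. The labels do not say what the control viruses carried, whether replicates were separate cultures or animals, or what was mixed in cKDmix, so the spread between libraries may be technical.

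Cells take up transferrin-bound iron through the transferrin receptor, reduce it in the endosome, and use it, store it in ferritin or export it through ferroportin. Ferritin is a hollow shell of heavy and light chains; the heavy chain oxidises iron and the light chain helps to build the mineral core. The iron regulatory proteins bind stem-loops in transcripts when iron is scarce, which stabilises the transferrin receptor transcript and holds back translation of ferritin and ferroportin. Ferritin output is therefore set partly in translation, which RNA levels do not show, while transferrin receptor output is set largely by transcript stability. In the mammary gland, iron handling serves both the metabolism of the cells and the iron content of milk.

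Values are FPKM, fragments scaled to transcript length and library size, as deposited by the authors. A level of 1 FPKM or more was reached by 10896 to 11870 genes per library; the depth of the libraries is not known from the table. Among the cell type markers examined, the 8 of fibroblasts had the highest sum in every library, between 11616.59 and 20182.46 FPKM. All genes together summed to between 476096 and 642595 FPKM per library. Of 10 luminal epithelial markers 8 were measured and 1 passed the filter, the estrogen receptor ESR1 (17.56 to 22.81 FPKM); no library had more than 0.28 FPKM of EPCAM, KRT8 or KRT18, and KRT19 reached 5.53 FPKM in c5NC. Of 6 basal or myoepithelial markers 3 passed, ACTA2 and MYLK, which myofibroblasts also express (up to 833.72 and 384.39 FPKM), and OXTR; KRT5 stayed at or below 0.53 FPKM and KRT14 reached 4.22 FPKM in c5NC. In bulk RNA, fewer cells of a type and less transcript per cell cannot be told apart. The median log2 difference of all 12180 genes tested was 0.30 in cKDmix against c3NC and 0.16 in cRNA28250 against c5NC. The 9 genes were proposed for description with results of these data in view, so their own levels and differences are given as a description, with no p-value.

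Ferritin heavy chain, FTH1 (gene identifier 100860752), was among the most abundant transcripts of the cells and was lowest in the knockdown. The c3NC libraries had 10055.57 and 9550.72 FPKM; FTH1 was at 3005.52 and 2248.55 FPKM in cKDmix, 12200.80 FPKM in c5NC and at 7006.77 and 7395.63 FPKM in cRNA28250. Both knockdown libraries lay below every other library, and both overexpression libraries lay below all 3 controls. The mean in cKDmix was 0.268 times that in c3NC, a log2 difference of −1.91 ± 0.43 (SE). The mean in cRNA28250 was 0.590 times the c5NC value, at −0.76 ± 0.52 on the log2 scale. FTH1 ranked 4 and 3 of all genes in c3NC and 17 and 20 in cKDmix.

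Ferritin light chain, FTL (gene identifier 102187344), was also lowest in the knockdown, but its level stood apart between the control groups. The c3NC libraries had 9261.89 and 7665.73 FPKM and the cKDmix libraries 3240.05 and 2807.58 FPKM. In c5NC it was at 4651.89 FPKM, close to the 4497.59 and 4261.78 FPKM of cRNA28250. The log2 difference was −1.48 ± 0.39 (SE) in the knockdown and −0.09 ± 0.48 in the overexpression, and c3NC exceeded c5NC by 0.86 ± 0.48. Set against c5NC in place of c3NC, a comparison added after the data were seen, the knockdown difference of FTL was −0.62.

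Summed over both chains, ferritin transcripts held 3.17% and 2.93% of all FPKM in c3NC, 2.69% in c5NC, 2.03% and 1.81% in cRNA28250, and 1.18% and 1.06% in cKDmix. The 4 groups did not overlap in this share. The ratio of heavy to light chain, taken within each library and so free of scaling between libraries, was 1.09 and 1.25 in c3NC and 0.928 and 0.801 in cKDmix. It was 2.62 in c5NC and 1.56 and 1.74 in cRNA28250. Heavy chain thus exceeded light chain in all libraries but those of the knockdown.

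Other abundant transcripts were also lower in the knockdown. Of the 96 tested genes with a mean of at least 1000 FPKM over the 7 libraries, 76 had a log2 difference below 0 in cKDmix, with a median of −0.86 and a lower quartile of −1.20. Both ferritin differences in the knockdown lay below that quartile. In cRNA28250 against c5NC, 70 of the 96 genes had a log2 difference below 0, with a median of −0.22. The part of these shifts in the ferritin values was not tested. Ferritin genes also have near-identical copies in mammalian genomes, and how the authors' counting treated shared reads is not stated, so their absolute levels are uncertain.

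**Figure D1:**
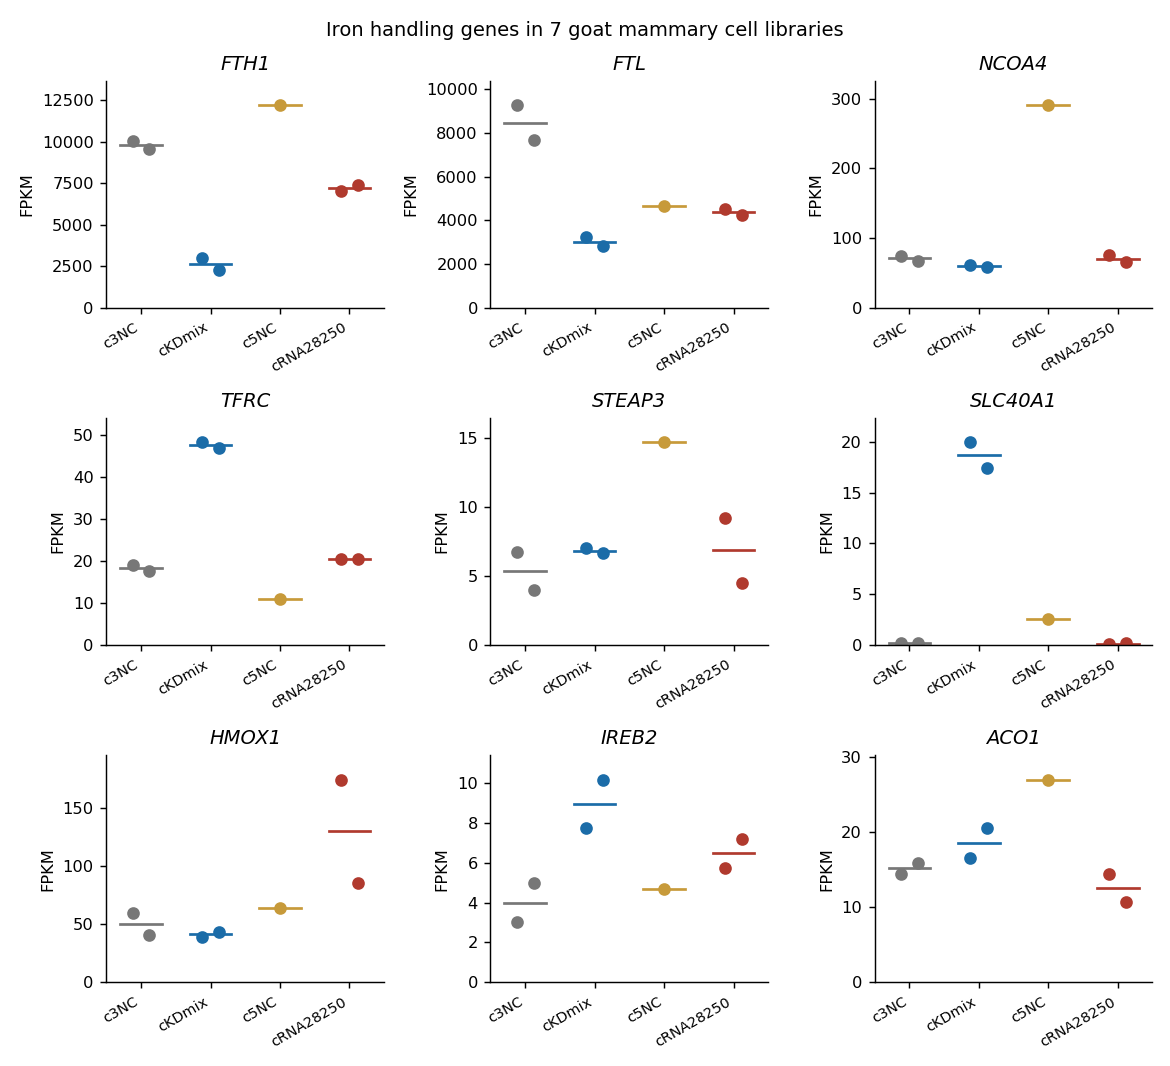
FPKM (vertical axes, from 0) of the 9 measured iron handling genes in each library of the 4 groups; points are libraries and horizontal lines are group means. The cKDmix libraries are lowest for FTH1 and FTL and highest for TFRC, SLC40A1 and IREB2, and the single c5NC library is highest for NCOA4, STEAP3 and ACO1.

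NCOA4 is the cargo receptor that brings ferritin to the lysosome for iron release. It stood at 290.33 FPKM in c5NC and between 57.72 and 75.43 FPKM in the other 6 libraries. The c5NC library alone was high, and c3NC, cKDmix and cRNA28250 lay within that narrow range. The log2 difference was −0.24 ± 0.19 (SE) in the knockdown and −2.03 ± 0.23 in the overexpression. Against c3NC, the difference of cRNA28250 was −0.01, so the overexpression value rests on the 1 library of c5NC, in which group and library cannot be told apart. The KRT14 and KRT19 levels of that library (4.22 and 5.53 FPKM) compare with at most 0.78 and 0.83 FPKM elsewhere, respectively. KRT5 was also highest there, at 0.53 FPKM. Other epithelial markers were not raised with them: EPCAM, KRT8, KRT18 and TP63 were at or below 0.05 FPKM in c5NC. ACTA2 and MYLK were lowest in that library, at 63.51 and 15.89 FPKM. The part of the keratin transcripts in the NCOA4 value was not tested.

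The transferrin receptor, TFRC, which imports transferrin-bound iron, was highest in the knockdown. It stood at 18.92 and 17.56 FPKM in c3NC, at 48.16 and 46.88 FPKM in cKDmix, at 10.81 FPKM in c5NC and at 20.50 and 20.54 FPKM in cRNA28250. Replicates were close, and no 2 groups overlapped. The cKDmix mean was 2.61 times that of c3NC (log2 difference 1.34 ± 0.17, SE), and the cRNA28250 mean was 1.90 times the c5NC value (0.87 ± 0.20). Against c3NC the overexpression difference was 0.16. The ratio of FTH1 to TFRC within a library was 531 and 544 in c3NC, 62.4 and 47.96 in cKDmix, 1129 in c5NC and 342 and 360 in cRNA28250, so storage and uptake transcripts were closest to each other in the knockdown.

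**Figure D2:**
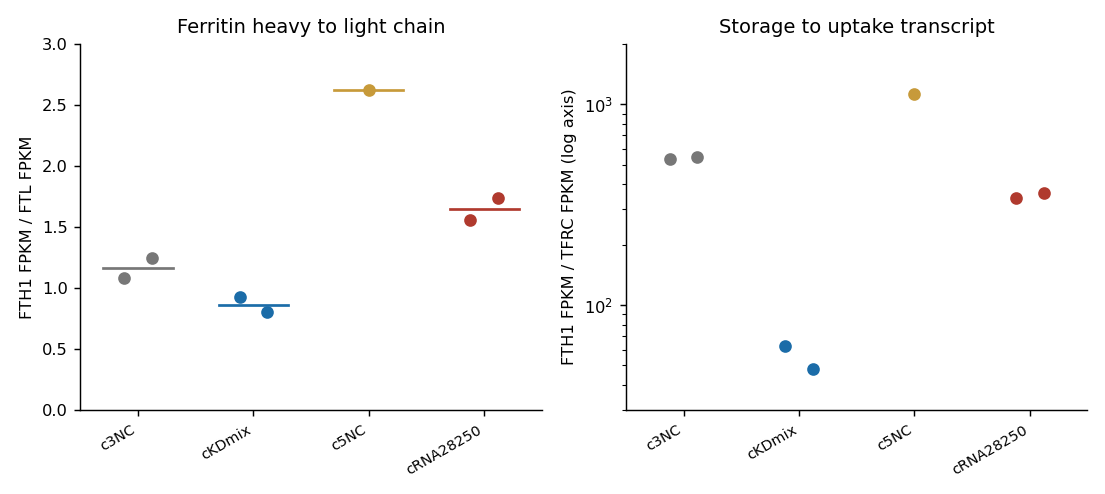
Ratios of FPKM within each library: ferritin heavy to light chain (left, linear axis from 0, lines are group means) and FTH1 to TFRC (right, log axis); points are libraries. Both ratios are lowest in the 2 cKDmix libraries (0.801 and 0.928; 47.96 and 62.4) and highest in the c5NC library (2.62 and 1129).

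STEAP3, the endosomal reductase that converts ferric to ferrous iron after transferrin uptake, varied as much within groups as between most of them. It stood at 6.71 and 3.95 FPKM in c3NC, 7.03 and 6.62 FPKM in cKDmix, 9.20 and 4.47 FPKM in cRNA28250 and 14.66 FPKM in c5NC. The ranges of c3NC, cKDmix and cRNA28250 overlapped, and c5NC lay above them. Its log2 differences were 0.34 ± 0.33 (SE) in the knockdown and −1.07 ± 0.41 in the overexpression, and the latter was 0.27 against c3NC.

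SLC40A1 encodes ferroportin, the only known cellular exporter of iron in mammals, and had the widest range of the 9 genes. It was near the lower end of detection in c3NC (0.15 and 0.17 FPKM) and in cRNA28250 (0.07 and 0.18 FPKM), at 2.56 FPKM in c5NC, and at 19.94 and 17.44 FPKM in cKDmix. The knockdown libraries lay above all others and c5NC above the remaining 4. The ratio of means between cKDmix and c3NC was 117, on values in c3NC that are rounded to hundredths and whose counting error is not known. On the log2(FPKM + 1) scale, which understates changes of low values, the difference was 4.08 ± 0.20 (SE), and with a pseudocount of 0.1 it was 6.17. Against c5NC the knockdown difference was 2.46. In the overexpression the difference was −1.66 ± 0.24, and against c3NC it was −0.05. SLC40A1 passed the filter on low values only through cKDmix and c5NC, where it was high.

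Ferroportin and heme oxygenase are abundant in macrophages that recycle iron, so markers of such cells were read beside them. Of 10 macrophage markers, 8 were measured, and their summed level was 185.89 to 223.82 FPKM in c3NC, 170.09 FPKM in c5NC, 63.76 to 65.39 FPKM in cKDmix and 125.93 to 201.09 FPKM in cRNA28250. CD14, a lipopolysaccharide co-receptor that fibroblasts can also express, was at 217.68 and 177.13 FPKM in c3NC and 45.69 and 44.03 FPKM in cKDmix. CD68, a lysosomal glycoprotein, made up most of the rest, with 5.86 and 8.61 FPKM in c3NC and 19.36 and 19.32 FPKM in cKDmix. The defining markers PTPRC, AIF1, MRC1 and C1QA were at or below 0.14 FPKM in all 7 libraries, and CSF1R was at or below 0.22 FPKM. The 4 measured markers of the red cell lineage, of 7 listed, summed to at most 2.39 FPKM in any library.

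HMOX1 encodes the inducible heme oxygenase, which breaks down heme and releases its iron. It stood at 59.75 and 40.21 FPKM in c3NC, 38.99 and 43.19 FPKM in cKDmix, 64.04 FPKM in c5NC and 174.64 and 85.65 FPKM in cRNA28250. Both overexpression libraries exceeded all others but lay further from each other than the lower one lay from the controls, and c3NC and cKDmix overlapped. The log2 difference was −0.25 ± 0.34 (SE) in the knockdown and 0.92 ± 0.42 in the overexpression. Without cRNA28250 replicate 1 the latter was 0.41 and without replicate 2 it was 1.43.

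The transcripts of the iron regulatory proteins differed in pattern. IREB2, which encodes iron regulatory protein 2 and is degraded as protein when iron is plentiful, stood at 3.00 and 4.97 FPKM in c3NC and 7.76 and 10.19 FPKM in cKDmix. It was at 4.69 FPKM in c5NC and 5.76 and 7.20 FPKM in cRNA28250. The knockdown libraries were highest, with a log2 difference of 1.02 ± 0.26 (SE), which quantile normalization lowered to 0.57; the overexpression difference was 0.39 ± 0.32. ACO1 encodes iron regulatory protein 1, which serves as cytosolic aconitase when it holds an iron-sulfur cluster. It stood at 14.44 and 15.90 FPKM in c3NC, 16.56 and 20.48 FPKM in cKDmix, 26.95 FPKM in c5NC and 14.38 and 10.59 FPKM in cRNA28250. Its log2 differences were 0.27 ± 0.21 in the knockdown and −1.07 ± 0.26 in the overexpression, and the latter was −0.27 against c3NC. The FPKM of ACO1 was 4.81 and 3.20 times that of IREB2 in c3NC, 2.13 and 2.01 times in cKDmix, 5.75 times in c5NC and 2.50 and 1.47 times in cRNA28250.

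**Figure D3:**
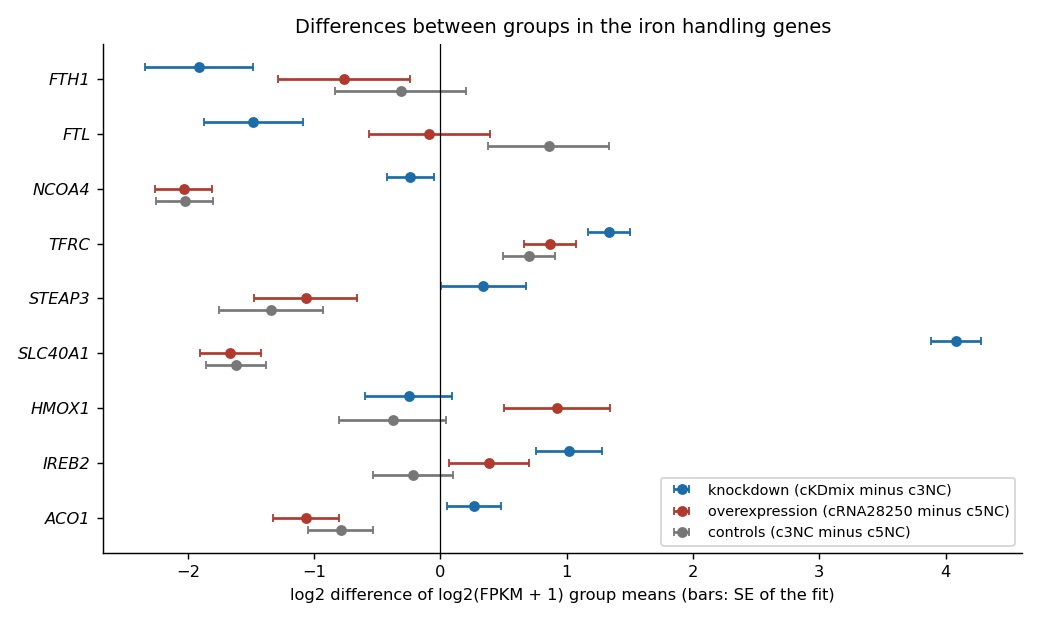
Log2 differences of log2(FPKM + 1) group means (horizontal axis, points; bars are the SE of the limma fit) for the 9 genes in the knockdown, the overexpression and between the 2 controls. SLC40A1 lies at 4.08 in the knockdown and at −1.66 in the overexpression, and the overexpression and control differences of NCOA4, SLC40A1 and STEAP3, which share the c5NC library, lie side by side.

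By the limma fit over all genes, at a Benjamini-Hochberg adjusted p under 0.05, 5 of the 9 genes were called in the knockdown, where 34.4% of all tested genes were called. TFRC, SLC40A1 and IREB2 were called higher, against a background of 26.8%, and FTH1 and FTL lower, against 7.56%. In the overexpression 3 were called, TFRC higher and NCOA4 and SLC40A1 lower, against a background of 7.62% (5.07% higher and 2.55% lower). Between the controls, NCOA4 and SLC40A1 were called lower in c3NC, against a background of 5.8% (2.73% higher and 3.07% lower). The same 2 genes were called higher in the difference between the knockdown and overexpression effects, against a background of 7.7% (4.01% higher and 3.69% lower). The genes were chosen on these contrasts, so nothing is read from these counts or calls. SLC40A1 also passed the filter on low values only through cKDmix and c5NC, where it was high, so its calls are no test. The median log2 difference of the 9 was 0.27 in the knockdown and −0.76 in the overexpression. The calls also moved with the processing. In the knockdown, TFRC was not called without either cKDmix library. FTH1 and FTL were not called without any 1 of the c3NC or cKDmix libraries or without the filter on low values, and FTL also not with c5NC or all 3 controls as the control group. IREB2 was not called without either cKDmix library, c3NC replicate 1 or the filter, under both scalings between libraries, or with c5NC as the control. With that control NCOA4 was called lower, at −2.26. In the overexpression, TFRC was not called without any 1 of the c3NC or cKDmix libraries, under both scalings, without the variance trend or with the replicate block. None of the 3 was called there with c3NC as the control, with only the libraries compared or with all 3 controls as 1 group, where 3, 4 and 1 of the 9 had an unadjusted limma p under 0.05. SLC40A1 was not called between the controls without either c3NC library, and NCOA4 not in the difference without any 1 of the c3NC or cKDmix libraries.

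Ordered by FPKM, a per-length level, the 9 genes ran in c3NC from FTH1 and FTL through NCOA4, HMOX1, TFRC, ACO1, STEAP3 and IREB2 to SLC40A1. Of neighbours in that order, STEAP3 and IREB2 overlapped between libraries and the others did not. In cKDmix the order was FTL, FTH1, NCOA4, TFRC, HMOX1, SLC40A1, ACO1, IREB2 and STEAP3. There the ranges of both ferritin chains overlapped, as did those of SLC40A1 and ACO1, and the other neighbours did not. Across the 7 libraries the highest value was 5.43 times the lowest for FTH1, 3.30 times for FTL and 285 times for SLC40A1, and between 2.54 and 5.03 times for the other 6 genes.

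The genes most like FTH1, by root mean square difference of log2(FPKM + 1) after centring over the 7 libraries, were NME4, a mitochondrial nucleoside diphosphate kinase (0.15), and RPLP2, a ribosomal stalk protein (0.17). For TFRC they were RFLNB and LIPA, the lysosomal acid lipase (both 0.14). LIPA stood at 68.12 and 72.87 FPKM in c3NC and 161.96 and 142.93 FPKM in cKDmix. For SLC40A1 the nearest were AARD (0.39) and B3GNT9 (0.56); this measure grows with the range of a gene, so it is not compared between genes. The cKDmix libraries had 31.17 and 31.33 FPKM of AARD, and no other library had more than 1.84 FPKM. For HMOX1 they were EGR3, an early response transcription factor (0.19), and MME, a membrane peptidase (0.22), both at most 6.69 FPKM.

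Around these genes, 111 further genes of iron metabolism were listed in 9 groups by known role, of which 97 were measured and 85 tested. In the knockdown 29 of the 85 were called (34.1%), 15 higher and 14 lower, a share close to the 34.4% of all genes. The 15 take in FLVCR1, which passed the filter on low values only through cKDmix, so its call is no test. After quantile normalization 10 were higher and 16 lower, and after median ratio scaling 7 and 24, since these scalings move the median of all genes from 0.30 to −0.02; among all genes the share of calls that were higher went from 78.0% to 49.1% and 48.4%. The count of 29 fell to 0 without cKDmix replicate 1 or replicate 2 (26 and 23 had an unadjusted limma p under 0.05), to 2 without c3NC replicate 1 and to 6 without c3NC replicate 2. It was 14 with c5NC as the control. Without cRNA28250 replicate 1 or replicate 2, whose own spread enters the shared error, it was 41 or 42.

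Of all tested genes, 26.8% were called higher and 7.56% lower in the knockdown, which is the background of each group count that follows; no group was tested as a set. Among uptake and reduction genes, 4 of 8 tested were lower in the knockdown and 0 higher (0 by unadjusted limma p under 0.05). SCARA5, a scavenger receptor that takes up ferritin, stood at 13.54 and 8.56 FPKM in c3NC and 1.99 and 1.95 FPKM in cKDmix, a log2 difference of −1.99 ± 0.28 (SE; limma, Benjamini-Hochberg adjusted p = 0.00485). The metalloreductases STEAP1 and STEAP4 had log2 differences of −0.93 and −1.19 (limma adjusted p = 0.0155 and 0.0227). SCARA5, STEAP1 and STEAP4 were lower still in c5NC, so with that control their differences turned to 0.45, 0.44 and 0.27 and none was called. SLC39A14, which imports iron not bound to transferrin, had a difference of 0.07 (limma adjusted p = 0.853). Of the export and systemic genes, only NEO1 and MON1A passed the filter. HAMP, the hormone hepcidin, and CP, the plasma ferroxidase ceruloplasmin, were at or below 0.33 and 0.16 FPKM in all libraries.

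Iron chaperones deliver iron to ferritin. PCBP2 stood at 343.59 and 380.53 FPKM in c3NC and 198.42 and 167.89 FPKM in cKDmix, and fell by 0.98 on the log2 scale (SE 0.22; limma adjusted p = 0.0151). PCBP1 had a difference of −0.54, which was not called (limma adjusted p = 0.0903). Of 8 genes of iron regulatory protein control, 1 was higher and 2 lower. CDC42BPA, a kinase whose human transcript carries an iron-responsive element, had a difference of 0.93 (limma adjusted p = 0.0210). FBXL5, the ubiquitin ligase subunit that senses iron and removes iron regulatory protein 2, was at 0.02 (limma adjusted p = 0.970).

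The list drawn up for mitochondrial iron was higher in 3 of 7 genes and lower in 0 (0 by unadjusted limma p under 0.05), and 1 of the 3, MMGT1, is no mitochondrial iron gene. SLC25A37, the importer mitoferrin-1, stood at 14.36 and 12.73 FPKM in c3NC and 45.86 and 46.74 FPKM in cKDmix, a log2 difference of 1.70 ± 0.37 (SE; limma adjusted p = 0.0138). MMGT1 had a difference of 1.16 (limma adjusted p = 0.00623) and remains in all counts of the further genes. Iron-sulfur cluster assembly genes went both ways, with 4 of 27 higher and 3 lower. The chaperone HSPA9 stood at 48.40 and 45.92 FPKM in c3NC and 110.86 and 122.00 FPKM in cKDmix (log2 difference 1.28 ± 0.19, SE; limma adjusted p = 0.00549). BOLA3 and NUBPL, which serve late steps of cluster delivery, had differences of 1.07 and 1.35 (limma adjusted p = 0.0144 and 0.0215). The scaffold gene ISCU had −0.75 and FAM96B, of cytosolic cluster targeting, −0.68 (limma adjusted p = 0.0220 and 0.0269).

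Of 9 heme synthesis genes, 1 was lower in the knockdown, ALAD, the second enzyme of the pathway, at −0.72 (limma adjusted p = 0.0361). Of 7 genes of heme transport and breakdown, 2 were called lower. The 1 called higher was FLVCR1, whose call is a description only. FLVCR1, a heme exporter, had a log2 difference of 1.10, with 0.84 and 0.50 FPKM in c3NC and 1.84 and 3.44 FPKM in cKDmix. It passed the filter on low values only through cKDmix, where it was high. Its difference and its call are therefore a description, with no p-value. BLVRB, a biliverdin and flavin reductase, stood at 332.84 and 301.15 FPKM in c3NC and 139.81 and 111.73 FPKM in cKDmix (−1.33 ± 0.22, SE; limma adjusted p = 0.00663). SLC48A1, which releases heme from the lysosome, had −1.06 (limma adjusted p = 0.00932).

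NRF2, encoded by NFE2L2, activates ferritin, ferroportin and heme oxygenase genes, and BACH1 represses them. In this group 6 of 13 genes were higher in the knockdown, against 26.8% of all genes, and 1 was lower, against 7.56%. NFE2L2 stood at 46.71 and 51.54 FPKM in c3NC and 83.26 and 82.55 FPKM in cKDmix (log2 difference 0.74 ± 0.17, SE; limma adjusted p = 0.0167). BACH1 stood at 3.77 and 5.02 FPKM in c3NC and 9.90 and 10.57 FPKM in cKDmix (1.07 ± 0.20; limma adjusted p = 0.00915). GCLM, the modifier subunit of glutathione synthesis and a known NRF2 target, stood at 9.27 and 11.44 FPKM in c3NC, 77.07 and 82.94 FPKM in cKDmix and 14.27 FPKM in c5NC (2.84 ± 0.33; limma adjusted p = 0.00326). NFE2L2 was at 81.97 FPKM and BACH1 at 9.03 FPKM in c5NC, so against that control their differences were 0.02 and 0.16 and neither was called. Of the genes given here with a p-value, quantile normalization ended the knockdown calls of BACH1, CDC42BPA and NUBPL. Median ratio scaling ended those of NFE2L2, BOLA3 and CDC42BPA. With c5NC as the control, BLVRB, GCLM, HSPA9, MMGT1, PCBP2 and SLC25A37 kept their calls and the others named here did not.

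**Figure D4:**
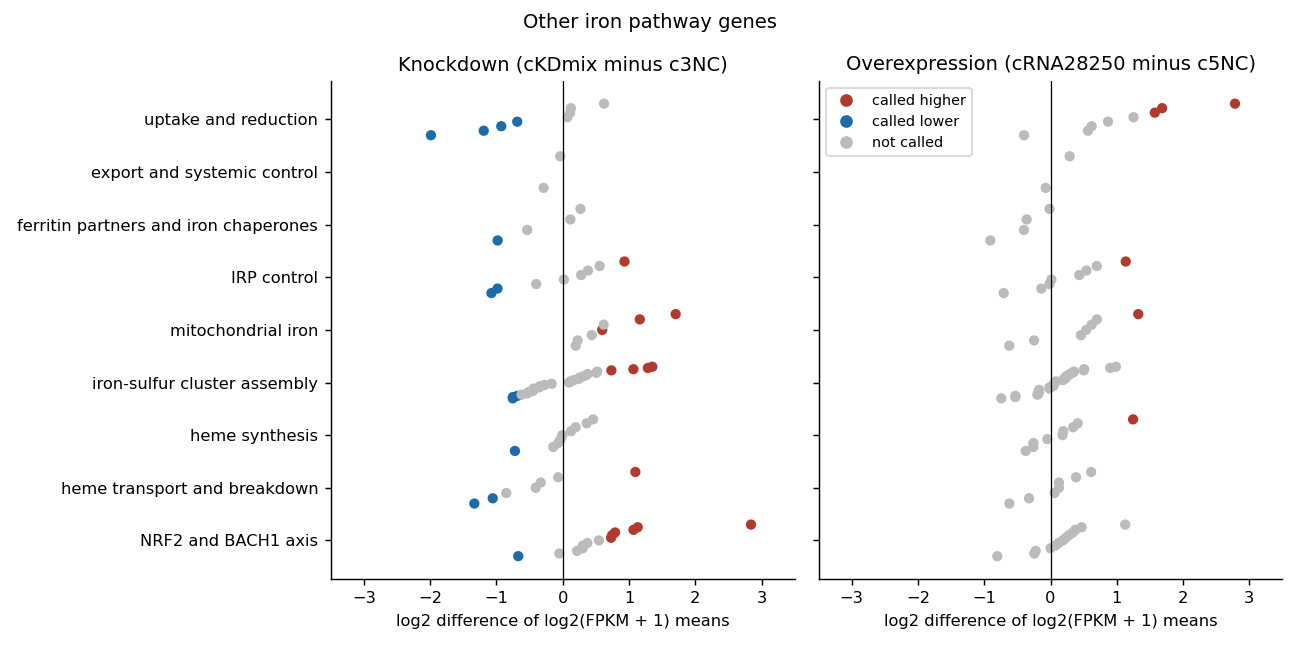
Log2 differences of log2(FPKM + 1) means (horizontal axes) of the 85 tested iron pathway genes, by group of known role, in the knockdown (left) and the overexpression (right); each point is a gene, coloured by its limma call at an adjusted p under 0.05. In the knockdown 15 genes are called higher, FLVCR1 among them as a description only, and 14 lower. In the overexpression 6 are called higher and 0 lower.

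In the overexpression 6 of the 85 further genes were called, all higher (7.06%, against 7.62% of all genes); 3 further genes were lower by unadjusted limma p under 0.05. The 6 called higher included SCARA5, STEAP1, STEAP4, PGRMC1 and RBX1. SCARA5 stood at 1.18 FPKM in c5NC and 17.31 and 11.31 FPKM in cRNA28250 (log2 difference 2.78 ± 0.34, SE; limma adjusted p = 0.00444). STEAP1 had a difference of 1.68 and STEAP4 of 1.57 (limma adjusted p = 0.0103 and 0.0471). RBX1, a subunit of the ligase that holds FBXL5, had a difference of 1.14 (limma adjusted p = 0.0471). PGRMC1, a heme-binding membrane protein, stood at 132.66 FPKM in c5NC and 272.74 and 366.08 FPKM in cRNA28250, against 109.45 and 116.26 FPKM in c3NC (1.25 ± 0.28; limma adjusted p = 0.0385). With c3NC as the control 2 genes were called, and the differences of SCARA5, STEAP1, STEAP4 and RBX1 were 0.35, 0.32, 0.11 and 0.42, none of them called, so these values rest on the single c5NC library. STEAP4 and RBX1 passed in 5 and 4 of the 16 alternatives; neither did with the replicate block or under either scaling. PGRMC1 was at 1.48 and called with c3NC. It passed in 8 of the 16 alternatives, and not with the replicate block or median ratio scaling. With only the libraries compared, or all 3 controls as 1 group, 1 was called. Without cRNA28250 replicate 1 the count was 17 and without replicate 2 it was 13, and it was 2 without any 1 of the c3NC or cKDmix libraries.

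Between the controls, SCARA5 and STEAP1 were called, both higher in c3NC, with log2 differences of 2.44 and 1.36 (limma adjusted p = 0.00780 and 0.0252). They share c5NC with the overexpression comparison. The difference between the knockdown and overexpression effects also takes in this gap between the controls. The knockdown and overexpression effects differed for 8 of the 85 genes (9.41%, against 7.7% of all genes), among them SCARA5 at −4.77 ± 0.44 (SE; limma adjusted p = 0.00182), STEAP1 at −2.61 ± 0.33 (limma adjusted p = 0.00543) and BACH1 at 1.87 ± 0.31 (limma adjusted p = 0.0148). These counts ranged from 0 to 18 between the controls and from 1 to 27 for the difference when 1 library was left out, lowest without a cKDmix library, where 16 had an unadjusted limma p under 0.05 between the controls, and highest without a cRNA28250 library.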

How the data were processed

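RNA was measured by RNA-seq of total RNA in 7 libraries. The authors deposited 1 table of FPKM values, rounded to hundredths, per the file headers; its aligner, annotation, build and strand setting are not given in the sources used. Low values did not resolve into whole reads, so depth is unknown and counting intervals are not given. Of 17374 identifiers, 17007 were matched to symbols with a RefSeq gene table (assembly ARS1.2, used for names only; 4 listed genes under older symbols). Genes with at least 1 FPKM in 2 libraries (12180) were fitted on log2(FPKM + 1) with limma 3.58.1 (R 4.3.3), 1 mean per group, with a variance trend, 3 residual degrees of freedom and 4.66 prior degrees of freedom; c5NC, with 1 library, is assumed to vary like the other groups. P-values were adjusted by Benjamini-Hochberg over all genes tested. Members and lists were chosen with earlier results of these data known. Named further genes are 12 partners (8 measured) and, per direction, up to 10 called genes with the smallest p in knockdown and overexpression and 4 in the difference and controls; values of the marker genes and the median over abundant genes were chosen for naming after they were seen. A few genes named by this rule are not reported here. The fit was run on simulated data with equal spread in every library and effects planted in cKDmix only. That run does not cover the wider spread of the cRNA28250 libraries.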

Additional observations from a re-analysis of the deposited data

Results flagged for a closer look

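The knockdown and overexpression effects differed, by the interaction term of the limma fit, for 6 of the named iron pathway genes. On the log2 scale the knockdown effect minus the overexpression effect was 1.87 for BACH1, 2.37 for GCLM, −4.77 for SCARA5, −2.61 for STEAP1, −2.77 for STEAP4 and −1.67 for SLC48A1. This term takes in the gap between the controls, of which c5NC is 1 library. That gap (c3NC minus c5NC) was 2.44 for SCARA5, 1.36 for STEAP1, 1.47 for STEAP4 and 0.62 for SLC48A1. For BACH1 it was −0.90 and for GCLM −0.43. SLC40A1 was higher than its control in both knockdown libraries (log2 difference 4.08) and lower than its control in both overexpression libraries (−1.66), and ACO1 did the same with smaller differences (0.27 and −1.07). Against c3NC the overexpression differences were −0.05 for SLC40A1 and −0.27 for ACO1. Against c5NC the knockdown difference of ACO1 was −0.53. The fit put the knockdown effect minus the overexpression effect at 5.75 for SLC40A1 and 1.33 for ACO1; since both genes were chosen on these contrasts, this is a description and not a test of the difference.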

How the results depend on the processing

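The 9 members kept the sign of every called difference under all alternatives run, but not its size. With c3NC as the control, the overexpression difference went from −2.03 to −0.01 for NCOA4 and from −1.66 to −0.05 for SLC40A1. For TFRC it went from 0.87 to 0.16. Of the further named genes, 3 turned in the knockdown with the other control (chosen after seeing the data): SCARA5 (0.45), STEAP1 (0.44) and STEAP4 (0.27). Counts of further pathway genes called moved by more than 1.5 times as follows. Without a filter they were 19 in the knockdown, 2 in the overexpression and 4 in the difference, over more genes tested. With the other control they were 14 and 2. In the overexpression, from 6, quantile normalization gave 3, only the libraries compared 1 and all controls as 1 group 1; between the controls, from 2, only the libraries compared gave 9. Leaving out 1 library gave 0 to 42, 2 to 17, 1 to 27 and 0 to 18 in the knockdown, overexpression, difference and controls. The replicate block gave 27, 3, 6 and 3. The labels do not say whether samples with equal numbers were paired. Replicate differences correlated at 0.11 between c3NC and cKDmix, 0.28 between c3NC and cRNA28250 and −0.15 between cKDmix and cRNA28250 across genes. With 1 replicate difference per group, these values cannot decide whether samples were paired. The other causes were not tested. Unknown depth limits SLC40A1 in c3NC and cRNA28250, where values lie below 0.2 FPKM.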

Other observations

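The 2 cRNA28250 libraries differed in several iron pathway genes, chosen here after their values were seen. SLC25A37 was at 11.82 FPKM in replicate 1 and 30.17 FPKM in replicate 2, the mitoferrin-2 gene SLC25A28 at 21.88 and 58.54 FPKM, GCLM at 13.53 and 29.72 FPKM, NQO1, a quinone reductase, at 40.72 and 81.39 FPKM, and NUBPL at 1.89 and 5.30 FPKM. For SLC25A37, GCLM, NQO1 and NUBPL, replicate 2 lay between replicate 1 and the cKDmix libraries. HMOX1 and LRP1, the receptor that clears heme bound to hemopexin, were higher in replicate 1, with LRP1 at 103.28 and 44.49 FPKM. Over all tested genes the SD of the log2 difference between replicates was 0.585 in cRNA28250, 0.300 in c3NC and 0.306 in cKDmix.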
